A study of Homo sapiens with 8 samples.

Results

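The genes of the proteasome were examined in RNA-seq libraries of A673, an established Ewing Sarcoma cell line, given either DMSO (vehicle) or JIB-04 at 2 μM for 36 hours. JIB-04 is an inhibitor of several Jumonji-domain histone demethylases. There were 4 libraries in each group, all from the same cell line in the same medium, so the comparison of JIB-04 with vehicle describes 1 cell line at 1 dose and 1 time. The genes were taken by name: every symbol made of PSM, a letter from A to G and a number, with the entry of highest mean where a symbol had several Ensembl identifiers. This gave 48 genes of the 65975 identifiers in the table. Of these, 46 had a mean of at least 1 FPKM (a read count divided by transcript length and library size) over the 8 libraries and were tested. The 2 others were PSMA8, the testis counterpart of PSMA7, which was listed at 0 in every library, and PSMB11, the catalytic subunit of the thymus, which was listed at 0 in 4 libraries and reached at most 0.0864 FPKM in the others.

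The proteasome degrades proteins that carry ubiquitin chains. Its core particle is a barrel of stacked rings in which alpha subunits (PSMA) form the gates and beta subunits (PSMB) line the chamber, with the cutting sites in PSMB5, PSMB6 and PSMB7. The regulatory particle that caps the barrel holds a ring of ATPases (PSMC), which unfold the substrate, and non-ATPase subunits (most PSMD), which bind ubiquitin and remove it. Cells exposed to interferon replace the cutting subunits by PSMB8, PSMB9 and PSMB10, giving the immunoproteasome, and use PSME1 and PSME2 as another cap. When proteasome activity falls short, cells can raise the transcription of the subunit genes through the factor NRF1 (NFE2L1).

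Sums of FPKM over all genes were 1346289 to 1370436 in the vehicle libraries and 1175407 to 1237186 with JIB-04, and scaling every library to the same sum (TPM) raised log2 fold changes by a median of 0.16. All 10 Ewing sarcoma markers examined, among them CD99 and NKX2-2, were above 1 FPKM in every library, although 7 of the 10 fell with JIB-04 (CD99 from 1160 to 599 FPKM and NKX2-2 from 151 to 88.9 FPKM) and 2 rose. Of 10 markers of other cell types, PTPRC, CD3E, CDH5, EPCAM and ALB stayed below 1 FPKM in every library, CD3E and ALB at 0 in all the vehicle libraries. Of the other 5, KRT8 (23.2 to 71.5 FPKM), SNAP25 (4.17 to 15.4 FPKM) and ITGAM (0.295 to 2.39 FPKM) rose, KRT18 fell (302 to 243 FPKM) and PECAM1 was not tested. The 10 together summed to 321 to 343 FPKM with vehicle and 324 to 340 with JIB-04. Most of that sum was KRT18, whose fall and the rise of KRT8 offset each other in it, so it says little of the other markers. ITGAM passed the filter of 1 FPKM only through its JIB-04 libraries, so its call as higher is no independent support. The part of these markers in the results was not tested. The read depth is unknown, since FPKM does not keep it. The methods describe each group as treated in quadruplicate and say no more of how the cultures were kept apart, so the p-values cover the spread among these libraries alone.

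Most proteasome genes were lower with JIB-04. Of the 46 tested, 32 were lower, 7 were higher and 7 did not pass the test (limma on log2(FPKM + 0.5), Benjamini-Hochberg adjusted p under 0.05). The members lower were 69.6% of those tested against 38.0% of all 17460 genes tested, and the members higher were 15.2% against 34.2% of all genes. The median log2 fold change was -0.34 over the proteasome genes and -0.07 over all genes. Most of these changes were smaller than 2-fold. Of the 46 genes, 6 (PSMB5, PSMB9, PSMB10, PSME1, PSME2 and PSMG3) were lower by at least 2-fold, a share close to the 11.8% of all genes. None was higher by at least 2-fold, where 13.1% of all genes were. PSMB5 and PSMC3 lay on either side of that limit, with log2 fold changes of -1.0 and -0.99. The JIB-04 values lay wholly below the vehicle values in 32 of the genes and wholly above them in 6, against 35.4% and 31.9% of all genes tested. On the TPM scale the counts were 24 lower and 11 higher and the median was -0.18, while those of all genes turned from 6640 lower and 5964 higher to 5424 lower and 7061 higher. The calls lost on that scale were those of PSMA6, PSMB1, PSMB3, PSMD1, PSMD11, PSMD13, PSME3 and PSMG2, all small changes.

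**Figure D1:**
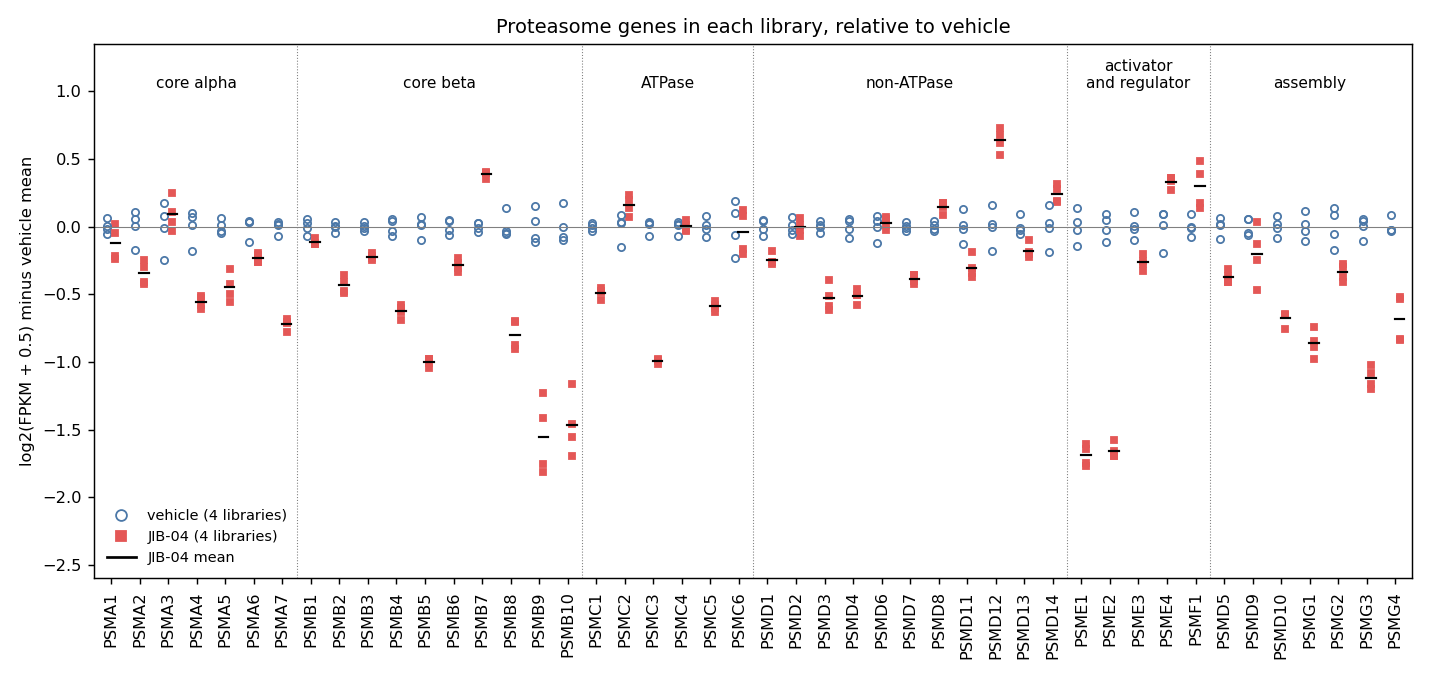
Level of each of the 46 tested proteasome genes in each library, as log2(FPKM + 0.5) minus the mean of the vehicle libraries, in 6 groups. Circles are the 4 vehicle libraries, squares the 4 JIB-04 libraries and bars the means of the latter, between -1.69 (PSME1) and 0.64 (PSMD12).

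The alpha ring was lower in 5 of its 7 tested subunits (71.4%, against 38.0% of all genes tested), and no subunit was higher (34.2% of all genes were). Its median log2 fold change was -0.34 (-0.18 on the TPM scale). PSMA7 was at 1082, 1075, 1092 and 1013 FPKM in the vehicle libraries and at 650, 662, 622 and 654 FPKM with JIB-04. With PSMB5 it had the highest vehicle mean of the 46 genes (1065 ± 35.9 and 1060 ± 51.0 FPKM, which do not differ beyond their SD), and it had the largest change of the ring, a log2 fold change of -0.72 (standard error, SE, 0.04, and adjusted p = 1.54e-07 by limma). PSMA4 was at 376, 447, 430 and 458 FPKM with vehicle and at 296, 279, 286 and 299 FPKM with JIB-04 (log2 fold change -0.56, SE 0.06, limma adjusted p = 2.93e-05). In both genes all JIB-04 libraries lay below all vehicle libraries. PSMA5, PSMA2 and PSMA6 also fell, with log2 fold changes of -0.45, -0.34 and -0.23. PSMA1 and PSMA3 did not pass the test: their log2 fold changes were -0.12 (95% confidence interval -0.26 to 0.02) and 0.09 (-0.12 to 0.31), although PSMA3 was called higher on the TPM scale, at 0.26, and PSMA1 was called lower without JIB-04 replicate 3, at -0.17. PSMA2 has a second identifier, ENSG00000256646, which overlaps the gene at its locus and was at 20.8 FPKM with vehicle and 35.0 FPKM with JIB-04, so reads may have been split between them. With the identifiers summed, the log2 fold change of PSMA2 was -0.26 and the median of the ring was -0.26.

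Of the 10 beta subunits tested, 9 fell (90%, against 38.0% of all genes tested) and PSMB7 rose, with a median log2 fold change of -0.53. The 10 include the immunoproteasome subunits PSMB8, PSMB9 and PSMB10, whose log2 fold changes of -0.80, -1.55 and -1.47 lay below that median. It is therefore not the median of the constitutive ring and cannot be set against that of the alpha ring. With a filter of 5 FPKM, which leaves out PSMB9, it was -0.43. The cutting subunits of the constitutive core did not move together. PSMB5, which carries the chymotrypsin-like activity, was at 1067, 1110, 1074 and 989 FPKM with vehicle and at 512, 525, 538 and 538 FPKM with JIB-04, a log2 fold change of -1.0 (SE 0.04, limma adjusted p = 4.43e-08). PSMB6, with the caspase-like activity, went from 468, 492, 489 and 457 FPKM to 377, 406, 385 and 395 FPKM, a smaller fall of 0.29 on the log2 scale (SE 0.04, limma adjusted p = 0.000119). PSMB7, with the trypsin-like activity, was at 611, 627, 628 and 598 FPKM with vehicle and rose to 785, 814, 810 and 810 FPKM with JIB-04 (log2 fold change 0.39, SE 0.03, limma adjusted p = 2.91e-06). None of the 3 genes had overlapping groups. With vehicle PSMB5 was the highest of the 3 in FPKM and with JIB-04 PSMB7 was, in every library. The structural subunits PSMB4, PSMB2, PSMB3 and PSMB1 fell, with log2 fold changes of -0.62, -0.43, -0.22 and -0.12.

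The immunoproteasome subunits were expressed at far lower levels than the subunits they replace, and all 3 fell. PSMB10 was at 46.6, 38.5, 41.2 and 39.1 FPKM with vehicle and at 13.7, 18.1, 12.4 and 14.7 FPKM with JIB-04 (log2 fold change -1.47, SE 0.11, limma adjusted p = 2.42e-06). PSMB8 was at 13.7, 13.6, 15.6 and 13.8 FPKM with vehicle and at 7.31, 7.49, 8.52 and 8.47 FPKM with JIB-04 (log2 fold change -0.80, SE 0.08, limma adjusted p = 1.52e-05). Neither gene had overlapping groups. PSMB9 was the lowest of the tested proteasome genes, at 3.51, 3.23, 2.91 and 2.85 FPKM with vehicle and at 0.572, 1.04, 0.857 and 0.527 FPKM with JIB-04. All its JIB-04 libraries were below its vehicle libraries. Its log2 fold change on the log2(FPKM + 0.5) scale was -1.55 (SE 0.17, limma adjusted p = 2.26e-05), which understates the ratio of the means, 4.17, at this level. PSMB9 passed the filter on low values through its vehicle libraries, since 3 of its 4 JIB-04 libraries were below 1 FPKM, so its call and its place among the 6 genes lower by at least 2-fold are no independent support. PSMB8 and PSMB9 are neighbours on chromosome 6 of GRCh38, at 32840717 to 32844703 on the minus strand and 32844136 to 32859585 on the plus strand in GENCODE. Their annotated ends overlap. The methods describe directional sequencing, but the sources used here do not say that the counting used strand.

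Each immunoproteasome subunit was then set against the subunit it replaces within the same library, a percentage that no scaling of the library changes. PSMB10 was 6.72% ± 0.639 of PSMB7 with vehicle and 1.83% ± 0.288 with JIB-04 (mean ± SD of FPKM ratios, 4 libraries each). The log2 ratio changed by -1.86. PSMB9 was 0.656% ± 0.0673 of PSMB6 with vehicle and 0.191% ± 0.0586 with JIB-04, and its log2 ratio changed by -1.27. The log2 ratios were taken after adding a pseudocount of 0.5 FPKM to each gene. Unlike the percentages they are thus not free of scaling, and for PSMB9 the change is understated. With pseudocounts of 0.1 and 1 the change for PSMB9 was -1.68 and -0.96. In both pairs every JIB-04 library was below every vehicle library (exact two-sided permutation p = 0.0286, adjusted over the 3 ratios 0.0286, the smallest that 4 libraries against 4 allow). For PSMB10 and PSMB7 this had to follow, since the genes moved in opposite directions without overlap, so the test adds nothing to their values. The PSMB9 ratio rests on a gene that passed the filter through its vehicle libraries and is no independent support either. PSMB8 behaved otherwise, since PSMB5 itself fell: it was 1.34% ± 0.101 of PSMB5 with vehicle and 1.5% ± 0.0874 with JIB-04. That log2 ratio changed by 0.21 with a pseudocount of 0.5 (exact permutation p = 0.0286, adjusted 0.0286) and by 0.18 with a pseudocount of 0.1, where the adjusted exact permutation p was 0.0857, and without any 1 of the JIB-04 libraries it was 0.0571. As plain percentages the libraries overlapped, with vehicle replicate 3 at 1.45% above JIB-04 replicates 1 and 2 at 1.43%.

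**Figure D2:**
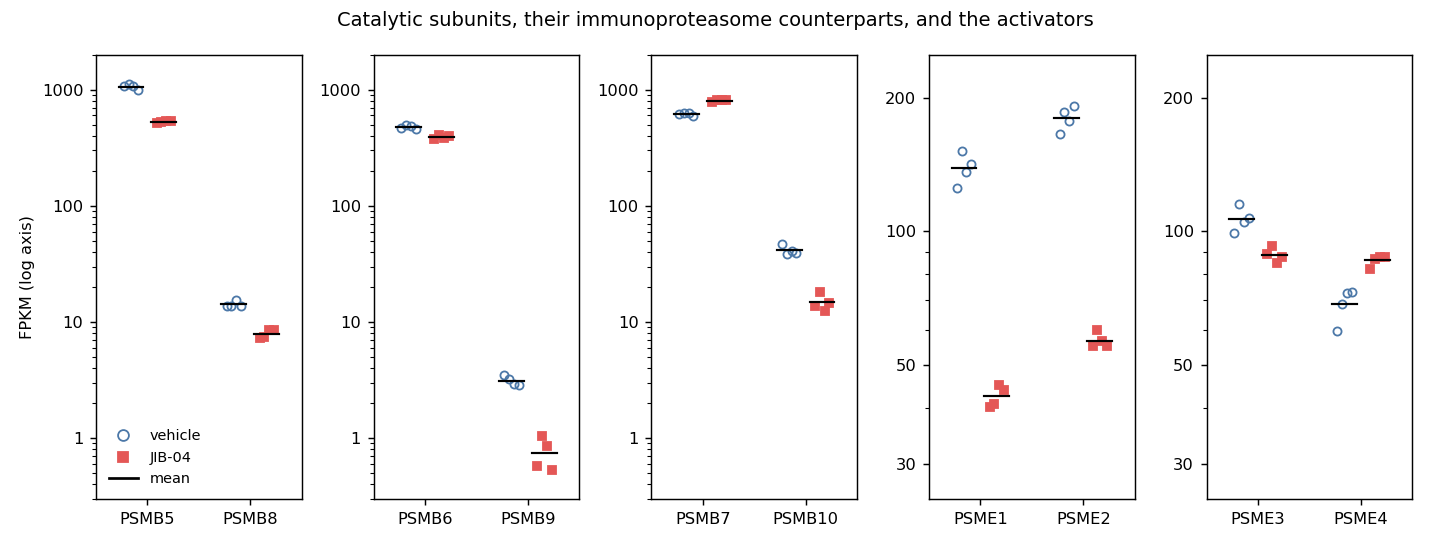
FPKM on log axes of the constitutive cutting subunits and their immunoproteasome counterparts in the 3 panels on the left, and of the activators PSME1 to PSME4 in the 2 panels on the right, whose axis covers a shorter range. Circles are the 4 vehicle libraries, squares the 4 JIB-04 libraries and bars the means; PSMB7 and PSME4 were higher with JIB-04 and the other 8 genes lower.

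Of the 4 activators and the regulator, 3 fell (60%, against 38.0% of all genes tested) and 2 rose (40%, against 34.2%). Their median log2 fold change was -0.27 (-0.10 on the TPM scale). PSME1 and PSME2, which together form the interferon-inducible cap of the core, had the largest falls of all the proteasome genes. PSME1 was at 125, 152, 136 and 142 FPKM with vehicle and at 40.3, 40.9, 45.1 and 44 FPKM with JIB-04, 3.26-fold lower by the means (log2 fold change -1.69, SE 0.07, limma adjusted p = 3.87e-08). PSME2 was at 166, 186, 177 and 192 FPKM with vehicle and at 55.2, 59.9, 56.6 and 55.1 FPKM with JIB-04, 3.18-fold lower (log2 fold change -1.66, SE 0.05, limma adjusted p = 1.43e-08). The proportion of the pair was similar in both groups, with PSME1 at 77.1% ± 3.52 of PSME2 in vehicle and 75.2% ± 5.65 in JIB-04 libraries; this ratio was looked at after the values had been seen and was not tested. The 2 genes lie close together on chromosome 14 of GRCh38, PSME1 from 24136158 to 24138967 on the plus strand and PSME2 from 24143362 to 24147570 on the minus strand.

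The other activators and the regulator moved less. PSME3, an activator of the nucleus, was at 99.2, 115, 105 and 107 FPKM with vehicle and at 89, 92.5, 84.7 and 87.8 FPKM with JIB-04 (log2 fold change -0.27, SE 0.05, limma adjusted p = 0.00155). PSME4, a large cap that acts without ATP, was at 59.7, 68.8, 72.8 and 72.9 FPKM with vehicle and rose to 82.5, 86.5, 87.6 and 87.7 FPKM with JIB-04 (log2 fold change 0.33, SE 0.07, limma adjusted p = 0.00161). PSMF1, a regulator that binds the core and blocks it in the test tube, was at 136, 137, 146 and 130 FPKM with vehicle and rose to 180, 192, 155 and 151 FPKM with JIB-04 (log2 fold change 0.29, SE 0.08, limma adjusted p = 0.00885). The groups did not overlap in any of the 3, and the rises of PSME4 and PSMF1 were present in every JIB-04 library.

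For the activators and the immunoproteasome subunits that fell together, and for PSMD12, the largest rise, the DNA before the transcription start was read from RefSeq windows on GRCh38.p14, 250 bases long and 5′ to 3′ on the gene's strand. The start is the one RefSeq gives, which is not the outermost GENCODE start. By the GENCODE positions, the windows of PSMB9 and PSME2 lie inside the gene and that of PSMB10 almost wholly inside. Those of PSME1 and PSMD12 lie partly inside. The sequences are shown so that genes that fell and the gene that rose can be compared. Capitals mark matches on either strand to TGACNNNGC, the core of the element bound by NRF1 and NRF2, to CCAAT, and to GAAANNGAA, a core of interferon response elements.
PSME1: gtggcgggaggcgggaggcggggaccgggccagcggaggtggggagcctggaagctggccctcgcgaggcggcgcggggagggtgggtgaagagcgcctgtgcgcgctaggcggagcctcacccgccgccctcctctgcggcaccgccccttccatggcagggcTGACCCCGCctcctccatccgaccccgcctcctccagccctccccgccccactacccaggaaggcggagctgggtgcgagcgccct
PSME2: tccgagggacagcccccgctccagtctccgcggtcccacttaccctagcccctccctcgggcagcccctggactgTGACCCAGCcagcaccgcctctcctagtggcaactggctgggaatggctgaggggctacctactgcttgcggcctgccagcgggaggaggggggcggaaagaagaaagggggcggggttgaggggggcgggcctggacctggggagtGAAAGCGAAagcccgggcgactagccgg
PSMB9: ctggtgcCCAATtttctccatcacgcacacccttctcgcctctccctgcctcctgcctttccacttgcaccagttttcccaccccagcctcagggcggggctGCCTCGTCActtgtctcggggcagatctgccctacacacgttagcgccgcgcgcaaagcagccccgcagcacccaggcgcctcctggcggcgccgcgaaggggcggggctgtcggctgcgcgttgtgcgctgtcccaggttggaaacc
PSMB10: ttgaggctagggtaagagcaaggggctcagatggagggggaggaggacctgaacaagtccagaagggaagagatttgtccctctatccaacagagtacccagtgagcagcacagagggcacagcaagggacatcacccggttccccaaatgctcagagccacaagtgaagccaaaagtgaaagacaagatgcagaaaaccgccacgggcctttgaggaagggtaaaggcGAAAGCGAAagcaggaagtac
PSMD12: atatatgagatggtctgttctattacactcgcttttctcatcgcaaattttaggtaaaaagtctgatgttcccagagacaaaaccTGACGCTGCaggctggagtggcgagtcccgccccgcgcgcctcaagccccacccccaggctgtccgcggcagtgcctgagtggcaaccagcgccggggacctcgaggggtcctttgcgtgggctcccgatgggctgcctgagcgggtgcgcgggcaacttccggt

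PSME1 on chromosome 14 (chr14:24135944-24136193, plus strand), PSME2 (chr14:24146611-24146860, minus strand), PSMB9 (chr6:32853942-32854191, plus strand) and PSMD12 (chr17:67366578-67366827, minus strand) each held 1 match to TGACNNNGC, which ended 78, 167, 140 and 157 bases before the start. PSME2 and PSMB10 (chr16:67936851-67937100, minus strand) held the same GAAAGCGAA close to the start, ending 20 and 13 bases before it. PSMB9 also held CCAAT. The 2 RefSeq windows of PSMB8 held no match to any of the 3. RefSeq windows were found for 42 of the 48 genes, 51 windows in all. TGACNNNGC was in 25.5% of these windows and in 10.9% of the windows of all genes, CCAAT in 37.3% against 32%, and GAAANNGAA in 9.8% against 6.88%. The 13 genes with TGACNNNGC included genes that fell (PSMA4, PSMB3, PSMB9, PSMC5, PSMD3, PSMD5, PSME1, PSME2, PSMG1 and PSMG2), PSMD12 and PSME4, which rose, and PSMD9, which did not pass the test. These matches are letters in a window and do not show that a factor binds there.

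The ATPase ring was uneven. Of its 6 subunits, 3 fell (50%, against 38.0% of all genes tested), PSMC2 was called higher (16.7%, against 34.2%) and 2 did not pass. The median log2 fold change of the ring was -0.27 (-0.10 on the TPM scale). PSMC3 was at 896, 891, 886 and 834 FPKM with vehicle and at 434, 440, 442 and 444 FPKM with JIB-04 (log2 fold change -0.99, SE 0.03, limma adjusted p = 1.43e-08). PSMC5 was at 384, 411, 392 and 368 FPKM with vehicle and at 251, 256, 265 and 260 FPKM with JIB-04 (log2 fold change -0.59, SE 0.04, limma adjusted p = 1.23e-06), and PSMC1 fell by 0.49 on the log2 scale. No JIB-04 library of these 3 genes reached the vehicle range. PSMC4 was at 329 FPKM in both groups (log2 fold change 0.00, 95% confidence interval -0.08 to 0.08), and PSMC6 had a log2 fold change of -0.04 with a wide interval, -0.29 to 0.20. PSMC2 was at 148, 167, 168 and 174 FPKM with vehicle and at 172, 180, 193 and 188 FPKM with JIB-04. Its groups overlapped, and its call rested on little (log2 fold change 0.16, limma adjusted p = 0.0362): it was lost on leaving out any 1 of vehicle replicates 1 to 3 or JIB-04 replicates 2 to 4, with limma adjusted p of 0.0536 to 0.0901.

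Of the 11 non-ATPase subunits, 6 fell (54.5%, against 38.0% of all genes tested), 3 rose (27.3%, against 34.2%) and 2 did not pass. Their median log2 fold change was -0.18, and -0.01 on the TPM scale. PSMD12, a scaffold subunit of the lid, was at 150, 172, 170 and 190 FPKM with vehicle and at 272, 246, 282 and 261 FPKM with JIB-04 (log2 fold change 0.64, SE 0.07, limma adjusted p = 3.56e-05). PSMD14, the enzyme that cuts ubiquitin chains off the substrate, was at 168, 190, 195 and 214 FPKM with vehicle and at 218, 217, 238 and 232 FPKM with JIB-04 (log2 fold change 0.24, SE 0.07, limma adjusted p = 0.0123). PSMD8, another lid subunit, was at 359, 377, 370 and 363 FPKM with vehicle and at 414, 414, 390 and 407 FPKM with JIB-04 (log2 fold change 0.14, SE 0.03, limma adjusted p = 0.00399). In all 3 the JIB-04 libraries lay above the vehicle libraries, by a narrow margin in PSMD14.

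PSMD3 and PSMD4 had the largest falls of this group. PSMD3 was at 173, 168, 170 and 163 FPKM with vehicle and at 118, 128, 110 and 112 FPKM with JIB-04 (log2 fold change -0.53, SE 0.05, limma adjusted p = 1.33e-05), and PSMD4, a ubiquitin receptor, had a log2 fold change of -0.51 (716 ± 31.2 and 502 ± 17.2 FPKM). PSMD7, the partner of PSMD14, fell by 0.38 on the log2 scale, so that the members of this pair moved in opposite directions. PSMD11, PSMD1 and PSMD13 had log2 fold changes of -0.30, -0.24 and -0.18. PSMD2, one of the largest subunits, was at 696 ± 26.0 FPKM with vehicle and 694 ± 26.5 FPKM with JIB-04 (log2 fold change -0.01, 95% confidence interval -0.10 to 0.09), and PSMD6 had a log2 fold change of 0.03 (-0.09 to 0.14). On the TPM scale PSMD2, PSMD6 and PSMC4 were called higher, with log2 fold changes of 0.16, 0.19 and 0.17.

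The assembly factors with PSM names, which build the particles and then leave them, were lower in 6 of 7 (85.7%, against 38.0% of all genes tested). None of the 7 was higher, and they had the lowest median log2 fold change of the groups, -0.68. POMP, an assembly factor under another name, rose (log2 fold change 0.81) and is described below. PSMG3, a chaperone of the alpha ring, was at 124, 123, 120 and 111 FPKM with vehicle and at 58.4, 56, 53.1 and 51.7 FPKM with JIB-04 (log2 fold change -1.12, SE 0.06, limma adjusted p = 1.32e-07). PSMG1, also a chaperone of the alpha ring, was at 202, 236, 213 and 220 FPKM with vehicle and at 117, 110, 121 and 130 FPKM with JIB-04 (log2 fold change -0.86, SE 0.06, limma adjusted p = 1.96e-06). The groups did not overlap in either gene. Their respective partners PSMG4 and PSMG2 fell as well, with log2 fold changes of -0.68 and -0.34. Of the chaperones of the ATPase ring, PSMD10 (gankyrin) and PSMD5 fell, with log2 fold changes of -0.68 and -0.37. PSMD9 did not pass (log2 fold change -0.20, 95% confidence interval -0.42 to 0.01) and without JIB-04 replicate 2 it did, at -0.28 (limma adjusted p = 0.0136).

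**Figure D3:**
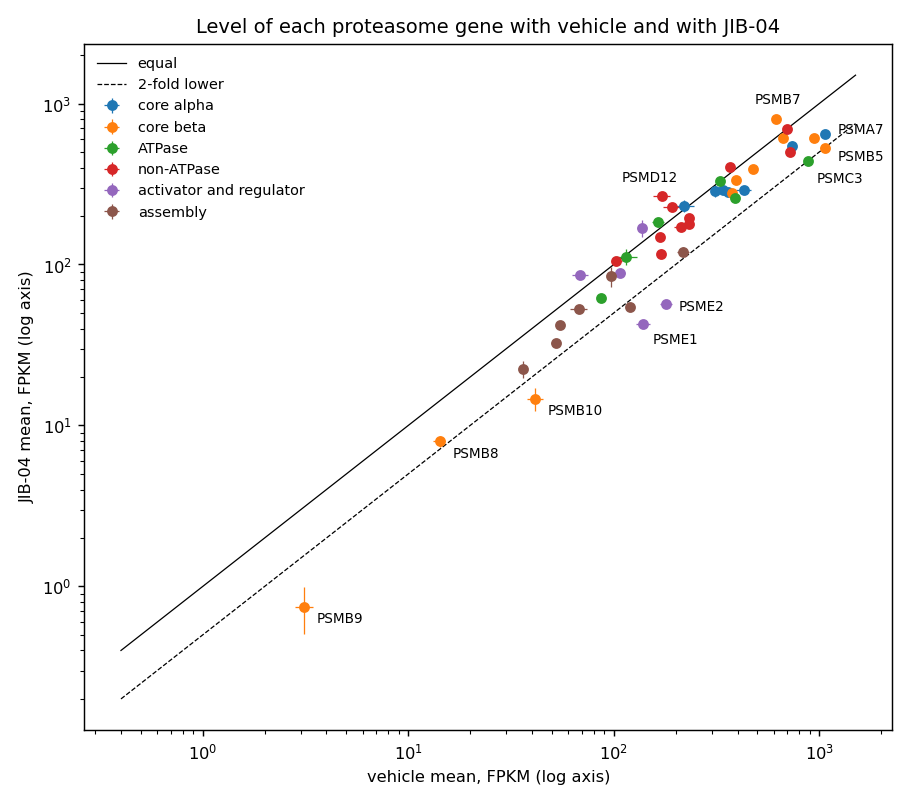
Mean FPKM of the 46 tested genes with JIB-04 against vehicle, on log axes, with bars for the SD over 4 libraries and colours for the 6 groups. Genes on the solid line had equal means and those on the dashed line were 2-fold lower with JIB-04; PSME1, PSME2, PSMB9, PSMB10, PSMG3 (the brown point beside PSME1) and, narrowly, PSMB5 lie below the dashed line.

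As a whole, the 14 constitutive core subunits (PSMA1 to PSMA7 and PSMB1 to PSMB7) summed to 7985 ± 213 FPKM with vehicle and 6130 ± 118 FPKM with JIB-04, which is 76.8% of vehicle, and 86.1% of it on the TPM scale. The levels of these subunits differed within each library, and less so with JIB-04. PSMA3 was the lowest of the 14 in every library. The highest was 4.12 to 5.92 times the lowest in the vehicle libraries and 3.14 to 3.83 times with JIB-04, and the SD of log2 FPKM over the 14 was 0.656 to 0.775 and 0.550 to 0.619. The ATPases showed the same, with an SD of 1.18 to 1.32 over the 6 in the vehicle libraries and 1.04 to 1.07 in the JIB-04 libraries. These spreads are over genes and were not tested. Between libraries of a group the proteasome genes varied little, with a median coefficient of variation of 4.67% with vehicle and 3.90% with JIB-04. Vehicle replicate 1 had the lowest vehicle value in 27 of the 46 genes, among them PSMA3, PSMD12, PSMD14 and PSME4, and without it 32 genes were lower and 6 higher.

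The fold changes were not ordered by level but were related to base composition. Over the 46 genes, Spearman's rho between vehicle FPKM and log2 fold change was 0.049, and between the GC content of the longest coding transcript and log2 fold change it was -0.44, against -0.33 over 12201 genes tested with a GC value. The median GC content was 52.0% in the genes that fell, 45.3% in those that rose and 46.2% in those that did not pass. These points share the same 8 libraries, and the part of base composition in the fold changes was not tested.

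Under other names, 11 further genes encode proteasome subunits or factors that act with the proteasome without being part of it. Of these 11, 6 rose, 2 fell and 3 (ADRM1, UCHL5 and USP14) did not pass, where 34.2% of all genes tested were higher and 38.0% lower. Their median log2 fold change was 0.38. On the TPM scale 8 rose and 2 fell, with UCHL5 and USP14 then called higher, and of all 17460 genes tested 7061 were higher. The call of UBLCP1, a phosphatase of the proteasome and 1 of the 6, was lost without JIB-04 replicate 4 or any 1 of vehicle replicates 1 to 3, by analysis of variance and with no filter. POMP, which closes the assembly of the core and is destroyed inside it, was at 118, 158, 152 and 163 FPKM with vehicle and at 241, 240, 280 and 271 FPKM with JIB-04 (log2 fold change 0.81, SE 0.10, limma adjusted p = 7.14e-05), in contrast to the PSMG chaperones that act before it. AKIRIN2, which brings proteasomes into the nucleus, was at 71.4, 62.9, 60.8 and 65 FPKM with vehicle and at 159, 155, 131 and 147 FPKM with JIB-04 (log2 fold change 1.18, SE 0.07, limma adjusted p = 5.31e-07). In both genes every JIB-04 library was above every vehicle library. UBE3C, a ubiquitin ligase bound to the proteasome, was at 86.5, 101, 104 and 103 FPKM with vehicle and at 152, 152, 156 and 158 FPKM with JIB-04 (log2 fold change 0.65, SE 0.06, limma adjusted p = 8.9e-06). KIAA0368 (ECPAS), which binds the core and its cap, was at 83.7, 84.1, 86.5 and 89.6 FPKM with vehicle and at 51.2, 54.9, 50.2 and 49.8 FPKM with JIB-04 (log2 fold change -0.73, SE 0.05, limma adjusted p = 7.51e-07). The groups did not overlap in either. SHFM1 (SEM1), a small lid subunit, rose by 0.38 on the log2 scale.

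The route that can raise subunit transcription was read from 11 genes, of which 6 rose, 3 fell and 2 (NFE2L1 and NGLY1) did not pass. Those that rose were DDI2, SEL1L, NFE2L2, MAFF, MAFG and MAFK, and those that fell VCP, SYVN1 and NFE2L3. Since NFE2L2 encodes another factor, NRF2, and the MAF proteins serve it too, the count is not one of NRF1 and its processing alone. Over all genes tested, 34.2% were higher and 38.0% lower. Without vehicle replicate 1 NGLY1 was called lower, and on the TPM scale NFE2L1 was called higher and SYVN1 lost its call as lower. NFE2L1, which encodes NRF1, was at 174, 170, 170 and 156 FPKM with vehicle and at 185, 168, 158 and 176 FPKM with JIB-04, and did not pass (log2 fold change 0.04, limma adjusted p = 0.589). DDI2, the protease that cuts NRF1 into its active form, was at 19.3, 19.2, 19.2 and 20.6 FPKM with vehicle and rose to 32.9, 31.3, 33.4 and 35.4 FPKM with JIB-04 (log2 fold change 0.75, SE 0.06, limma adjusted p = 1.99e-06). NGLY1, which removes its sugar chains, was at 23.9, 27.8, 26.3 and 27.9 FPKM with vehicle and at 25.7, 22.8, 24.2 and 24 FPKM with JIB-04, overlapping groups that did not pass (log2 fold change -0.13). The small MAF proteins, partners of NRF1 and NRF2 on DNA, all rose. MAFF was at 2.53, 3.34, 2.73 and 2.79 FPKM with vehicle and at 43.6, 47.7, 43.4 and 42.9 FPKM with JIB-04 (log2 fold change 3.75, SE 0.09, limma adjusted p = 2.28e-09). MAFK was at 12.3, 9.06, 9.11 and 9.47 FPKM with vehicle and at 39.5, 41.7, 30.5 and 32.6 FPKM with JIB-04 (log2 fold change 1.80, SE 0.13, limma adjusted p = 1.45e-06), and MAFG had a log2 fold change of 0.74. No vehicle library reached the JIB-04 range of any of these 3 genes. NFE2L2, which encodes NRF2, rose from 90.6 ± 10.9 to 181 ± 14.7 FPKM. VCP, the ATPase that draws NRF1 out of the endoplasmic reticulum and feeds many substrates to the proteasome, was at 973, 997, 996 and 923 FPKM with vehicle and fell to 538, 539, 542 and 533 FPKM with JIB-04 (log2 fold change -0.85, SE 0.03, limma adjusted p = 3.64e-08).

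**Figure D4:**
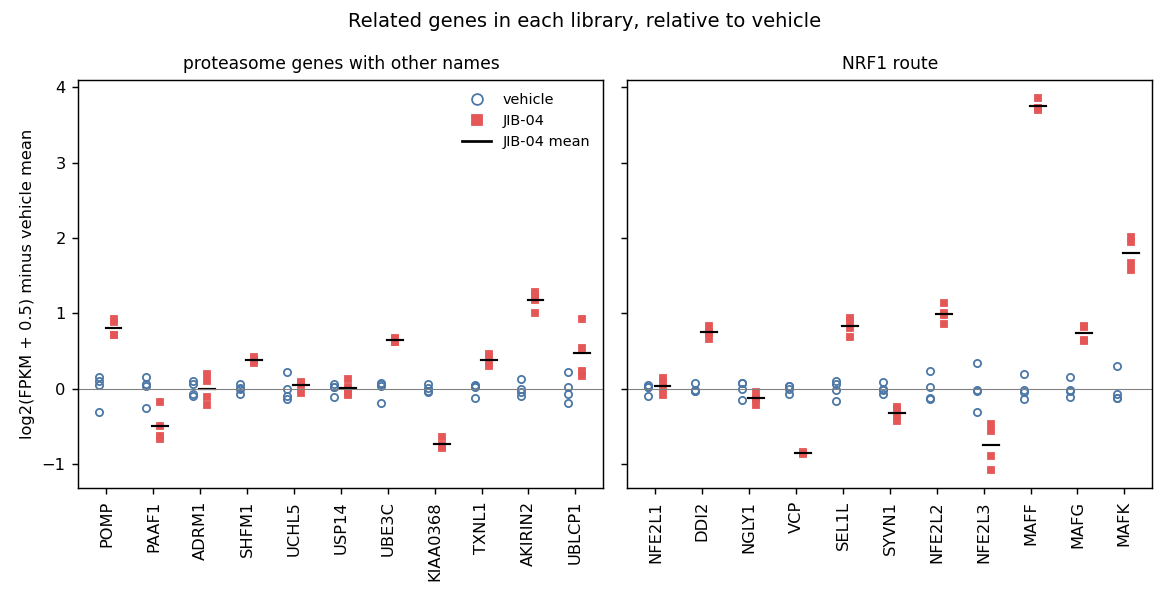
Level of each gene of the list of proteasome genes with other names (left) and of the NRF1 route (right) in each library, as log2(FPKM + 0.5) minus the mean of the vehicle libraries. Circles are the 4 vehicle libraries, squares the 4 JIB-04 libraries and bars the JIB-04 means, from 3.75 for MAFF to -0.85 for VCP.

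Of 14 genes of ubiquitin supply and of the shuttles that carry substrates, 9 fell, 3 rose and 2 did not pass. On the TPM scale 4 fell and 5 rose. Of all 17460 genes tested, 38.0% were lower and 34.2% higher, and on the TPM scale 5424 were lower and 7061 higher. On that scale the list was thus close to all genes. Of the 14, 7 or 8 fell on leaving out any 1 library, and 7 with median-ratio scaling, where the calls of UBQLN2 or NPLOC4 were lost. UBB, a polyubiquitin gene, was at 3002, 3084, 3073 and 2789 FPKM with vehicle and at 1458, 1399, 1432 and 1442 FPKM with JIB-04 (log2 fold change -1.06, SE 0.04, limma adjusted p = 2.14e-08). UBQLN4, a shuttle, was at 74.4, 74.6, 71.6 and 66 FPKM with vehicle and at 38.1, 41.3, 38.2 and 37.5 FPKM with JIB-04 (log2 fold change -0.88, SE 0.06, limma adjusted p = 6.95e-07). In both genes the JIB-04 libraries were wholly below the vehicle libraries. Both falls held on the TPM scale. UBA1, the main ubiquitin-activating enzyme, rose by 0.22 on the log2 scale.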

How the data were processed

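RNA-seq was analyzed for 8 A673 libraries, 4 per group. Per the labels, the authors aligned reads to GRCh38 with GSNAP, used SAMtools, and calculated FPKM with Cufflinks. The deposited FPKM were used unscaled. Entries of the 117 identifiers listed more than once were summed, and 13 genes with a placeholder value (0 of them proteasome genes) were left out. For genes that averaged 1 FPKM or more, log2(FPKM + 0.5) entered a linear model of limma (version 3.58.1, R 4.3.3; trended eBayes, two-sided, Benjamini-Hochberg adjustment over 17460 genes, threshold 0.05). The model was also run on simulated libraries in which few genes changed, which cannot check the scaling between the groups. Ratios within a library were compared by exact permutation. Positions and GC content are from GENCODE release 29. Python 3.11.15 was used.

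The gene set, lists and tests were chosen with earlier results of these data known. Values in every library are given for the 2 largest changes of each group, the catalytic and immunoproteasome subunits, PSME1 to PSME4, PSMF1 and members that moved against their group; for related lists, for 3 genes by adjusted p and NFE2L1, POMP, DDI2 and NGLY1. Some genes of the related lists are not reported here. Others named were chosen after their values were seen. Alternatives were pseudocounts of 0.1 and 1, no filter, 5 FPKM, TPM, median-ratio scaling, analysis of variance of FPKM, a replicate block, leaving out each library, and summed identifiers.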

Additional observations from a re-analysis of the deposited data

Results flagged for a closer look

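In groups of 4 libraries, a library was marked where its distance to the nearest of the others as a share of the range of the group was above Dixon's 95% critical value. Of 100 groups examined, 7 were marked, and chance marks about 1 in 20. With vehicle, PSMA6 was lowest in replicate 1 at 313 FPKM (others 348 to 350.0), PSMB8 was highest in replicate 3 at 15.6 FPKM (13.6 to 13.8), PSMC3 was lowest in replicate 4 at 834 FPKM (886 to 896), and PSMG4 was highest in replicate 4 at 38.2 FPKM (35.1 to 35.4). With JIB-04, PSMB7 was lowest in replicate 1 at 785 FPKM (810 to 814), PSMD1 was highest in replicate 3 at 204 FPKM (191 to 193), and PSMD10 was lowest in replicate 2 at 30.6 FPKM (33.0 to 33.1). In none of these 7 genes did the marked library reach the values of the other group.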

How the results depend on the processing

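With TPM scaling 11 genes were higher, the core sum was 86.1% of vehicle, and the median log2 fold changes were -0.18 (all), -0.18 (alpha), -0.36 (beta), -0.10 (ATPase), -0.01 (non-ATPase), -0.10 (activators and regulator) and -0.51 (assembly). PSMB1 turned to 0.05 and PSMD2 to 0.16. The beta median was -0.43 with a filter of 5 FPKM and with no filter, and the alpha median -0.26 with summed identifiers. With pseudocounts of 0.1 and 1, the log2 fold change of PSMB9 was -1.96 and -1.24 and the PSMB9/PSMB6 difference -1.68 and -0.96. The PSMB8/PSMB5 difference was 0.18 with a pseudocount of 0.1.

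Leaving out each library gave 32 to 33 genes lower, 6 to 7 higher and 5 to 7 lower at least 2-fold. Medians were -0.39 to -0.32 (all), -0.40 to -0.31 (alpha), -0.55 to -0.51 (beta), -0.31 to -0.24 (ATPase), -0.20 to -0.15 (non-ATPase), -0.30 to -0.23 (activators and regulator) and -0.69 to -0.63 (assembly), and the core sum 76.1% to 77.6%. The ratio differences were 0.17 to 0.25 (PSMB8/PSMB5, whose adjusted exact permutation p was 0.0571 without any 1 of the JIB-04 libraries), -1.36 to -1.17 (PSMB9/PSMB6) and -1.95 to -1.78 (PSMB10/PSMB7). Same-numbered libraries did not vary together (correlations of -0.058 to 0.0823), and with the replicate block 32 genes were lower and 7 higher.

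The call of PSMC2 was also lost by analysis of variance and with no filter, and that of PSMB1 by median-ratio scaling; without JIB-04 replicate 3, PSMA1 was called lower at -0.17. The cause was not tested. Depth is unknown and limits PSMB9 and PSMB11 most.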

Other observations

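Of the 3 tested antisense genes named after proteasome genes, 1 rose, 1 fell and 1 did not pass. Over all genes tested, 34.2% were higher and 38.0% lower. PSMA3-AS1 was at 25.9, 22.6, 23.3 and 26.4 FPKM with vehicle and at 53.1, 51.1, 55.4 and 57.2 FPKM with JIB-04 (log2 fold change 1.13, SE 0.07, limma adjusted p = 4.35e-07), while PSMA3 did not pass the test. PSMD5-AS1 was at 19.3, 22.7, 19.8 and 19.2 FPKM with vehicle and at 9.97, 8.49, 9.71 and 10 FPKM with JIB-04 (log2 fold change -1.05, SE 0.08, limma adjusted p = 2.61e-06), beside -0.37 for PSMD5; the difference was not tested. The groups did not overlap in either. PSMG3-AS1 was at 1.59, 2.81, 2.52 and 2.47 FPKM with vehicle and at 2, 1.23, 2.22 and 1.3 FPKM with JIB-04 and did not pass (log2 fold change -0.39), though it was called lower without vehicle replicate 1, and PSMB8-AS1 and PSMD6-AS2 were below 1 FPKM in every library. The sequencing was directional by the methods, but the sources do not say whether strand was used to keep reads of these genes and their partners apart.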
